A study of Homo sapiens with 6 samples.

Results

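The interleukin-1 family and the inflammasome adaptor were followed through 10 genes: the ligands IL1A, IL1B, IL36B, IL33 and IL18, the receptor antagonist IL1RN, the receptor IL1R1, its co-receptor IL1RAP, the adaptor PYCARD and the protease CASP1. They were found by gene symbol among 19775 genes on the array and carried 23 of its 54675 probe sets. The brightest probe set, by mean over the 6 arrays, stood for each gene and the others served as a check. Part of the family was chosen by measured values: IL36B and IL1RN by their differences between U87MGR and U87MG, and PYCARD by its differences of U87MGR from both other groups. Those 4 differences are given as a description, without a p-value. They do enter the counts of called genes and of calls under other settings, and nothing is read from those. Which values, if any, led to the other 7 genes is not recorded, and results of the same arrays were known when they were listed.

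The arrays measured total RNA of cultured glioma cells on a log2 scale, 2 arrays per group. U87MG was the parental line, an established human glioblastoma line, in serum-containing medium. U87MGL (sublines U87MGL2 and U87MGL3, non-invasive) and U87MGR (U87MGR2 and U87MGR3, highly invasive) were derived from it by 4 rounds of injection into the striatum of 6-week-old BALB/c nu/nu mice. After each round the tumours were dissociated, red blood cells were removed and the tumour cells were cultured under the same conditions. No drug treatment is given for any group. Such mice lack T cells but keep innate immune cells, and no step that removes host cells other than red blood cells is described. Per the labels, replicate 1 of each derivative was subline 2 and replicate 2 was subline 3, so the spread within U87MGL or U87MGR includes any difference between sublines. Arrays are numbered as biological replicates without saying how cultures were kept apart, and p-values measure only the spread between these samples.

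Interleukin-1 ligands are danger signals. IL1A and IL1B bind IL1R1, which then recruits IL1RAP and signals through MYD88 and IRAK kinases to NF-kappaB. IL1RN binds the same receptor without signalling and so blocks it, while IL36B acts on a separate receptor that shares IL1RAP. IL1B and IL18 are made as inactive precursors. An inflammasome, built from a sensor, PYCARD (also named ASC) and CASP1, cuts them to their active form. In glioma, IL-1 signalling is known for driving the secretion of cytokines and proteases. The array reads mRNA and does not report this cutting.

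Of the 10 genes, 5 lie on chromosome 2. IL1A, IL1B, IL36B and IL1RN belong to a cluster of 9 family genes there, and IL1R1 lies on the same chromosome. Upstream sequences of IL1A, IL1B and IL1RN are shown because these cluster genes behaved differently across the groups, and that of PYCARD because it separated U87MGR. RefSeq start sites were given for 7 of the 10 genes (assembly GRCh38.p14). Each sequence runs over the 250 bases before the start site, 5′ to 3′ on the gene's strand. Capitals in the first 3 mark matches on either strand to TGANTCA (AP-1), TTGCNNAA (C/EBP) or TATAAA. In PYCARD they mark CG pairs.
IL1A, first of 2 start sites, chr2:112784494-112784743, minus strand: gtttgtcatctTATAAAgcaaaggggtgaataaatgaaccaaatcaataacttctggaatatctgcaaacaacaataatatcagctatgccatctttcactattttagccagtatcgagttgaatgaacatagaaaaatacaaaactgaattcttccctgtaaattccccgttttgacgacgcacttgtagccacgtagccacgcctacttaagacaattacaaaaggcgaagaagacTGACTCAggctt
IL1B, chr2:112836780-112837029, minus strand: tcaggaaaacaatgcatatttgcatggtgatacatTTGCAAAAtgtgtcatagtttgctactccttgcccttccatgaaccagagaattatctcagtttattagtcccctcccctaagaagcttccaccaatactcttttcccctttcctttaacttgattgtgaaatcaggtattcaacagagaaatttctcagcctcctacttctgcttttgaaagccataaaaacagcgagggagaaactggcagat
IL1RN, first of 3 start sites, chr2:113117721-113117970, plus strand: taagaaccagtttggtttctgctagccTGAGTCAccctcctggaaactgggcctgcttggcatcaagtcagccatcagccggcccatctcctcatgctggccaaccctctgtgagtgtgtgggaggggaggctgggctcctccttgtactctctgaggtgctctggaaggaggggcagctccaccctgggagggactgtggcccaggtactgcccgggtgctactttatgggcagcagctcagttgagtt
PYCARD, chr16:31202761-31203010, minus strand: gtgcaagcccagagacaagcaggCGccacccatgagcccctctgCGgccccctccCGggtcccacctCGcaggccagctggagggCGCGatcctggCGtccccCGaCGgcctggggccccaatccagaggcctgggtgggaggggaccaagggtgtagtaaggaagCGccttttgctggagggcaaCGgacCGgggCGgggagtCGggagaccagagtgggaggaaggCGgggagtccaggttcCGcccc
In these windows IL1A held 1 AP-1 match and 1 TATAAA, IL1B held 1 C/EBP match, and IL1RN held 1 AP-1 match. The windows of other start sites differ: the second of IL1A held 2 AP-1 matches and no TATAAA, and those of IL1RN held no AP-1 match. The motifs occurred in 6.57% (AP-1), 10.7% (TATAAA) and 9.05% (C/EBP) of the 35116 upstream windows of the same length. Another motif, kappaB, had no match in these 4 windows and occurred in 9.96% of all windows. PYCARD had no match to the 4 motifs. It held 16 CG pairs, against a median of 11 over all windows, 7 in IL1A, 2 in IL1RN and 1 in IL1B.

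By the brightest probe sets, both derivatives had far lower IL36B and IL1RN signal than the parental line, and the other IL1RN probe sets differed less. PYCARD mRNA was low in U87MGR and not in U87MGL. IL1B was abundant but differed as much between replicates as between groups. IL18 stayed near the bottom of the scale, and IL33 was above the test threshold on 1 array. A gene was tested where its mean reached a log2 signal of 4.73, the 40th percentile of all probe sets, which kept 8 of the 10 genes. A gene was called at a limma p under 0.05 after Benjamini-Hochberg adjustment over the 14513 genes tested. Against U87MG, 3 of the 8 genes were called lower in U87MGR, where 1.44% of all genes tested were, and 2 were called lower in U87MGL, where 1.8% were. Between U87MGR and U87MGL, 1 was called lower, where 0.117% were. None of the 8 was called higher, against backgrounds of 1.86%, 3.02% and 0.0413%. The counts in U87MGR rest on the genes that prompted the choice. That in U87MGL consists of IL36B and IL1RN, chosen by a difference from the same U87MG arrays. Nothing is read from any of these counts. Arrays of 2 groups that do not overlap were common over all genes. U87MGR lay wholly below U87MG in 4 of the 8 genes and above it in 1, where 24.2% and 24.2% of all genes did so, and below U87MGL in 4 and above it in 2 (23.3% and 23.3%). U87MGL lay wholly below U87MG in 4 and above it in 2, beside 28.3% and 28.1% of all genes. In either direction that is 5 of 8 beside 48.4%, 6 of 8 beside 46.6% and 6 of 8 beside 56.4%.

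**Figure D1:**
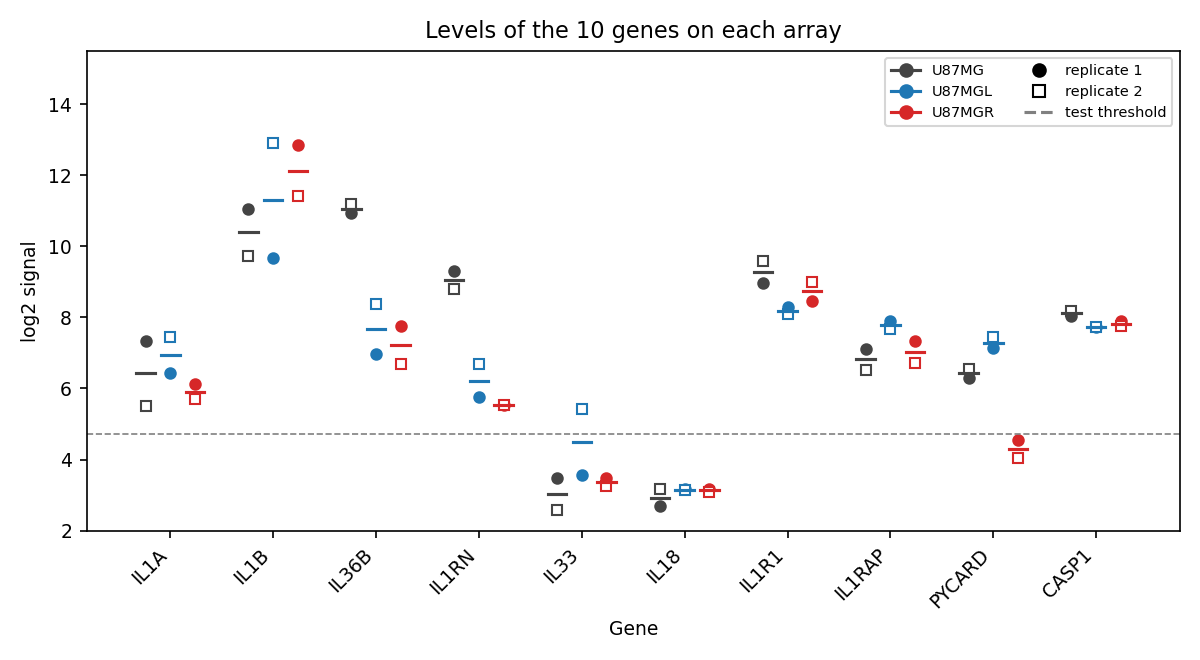
Log2 signal (y axis) of the brightest probe set of each of the 10 genes (x axis) on each array. Colours mark the group, filled circles replicate 1, open squares replicate 2, short bars the group mean (n = 2), and the dashed line the mean of 4.73 needed for the test. IL36B and IL1RN are high in U87MG alone, PYCARD is low in U87MGR alone, and the IL1B replicates lie far apart in every group.

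By their spiked-in control RNA the arrays fell into 3 batches. U87MGL replicates 1 and 2 and U87MGR replicate 1 formed one, U87MG replicate 1 and U87MGR replicate 2 another, and U87MG replicate 2 stood alone. Distances over 45 control probe sets were 0.9 to 1.44 within batches and 5.59 to 8.84 between them. Within-batch differences are therefore given for U87MGR against each other group, while no batch holds both U87MGL and U87MG. The U87MGR arrays differ in both batch and subline, so the 2 cannot be told apart, also where batches enter a fit as a block. Fits with 3 batches as a block also left out U87MG replicate 2. RNA quality was read from actin as the signal at its 3′ end minus that at its 5′ end, which was -0.01 and 0.22 in U87MG and 0.25 to 0.39 in the derivatives. It moved with the contrast of U87MG against the derivatives, and its part in the results was not tested. The same measure on GAPDH overlapped between them, at 0.055 and 0.0734 in U87MG and 0.0327 to 0.236 in the derivatives. Of the glioma markers, VIM and CD44 were strong (12.96 to 14.46 on the 6 arrays), while GFAP and OLIG2, which define astroglial and oligodendroglial cells, lay at 5.21 to 5.45 and 4.78 to 5.67, and S100B and AQP4 were under the test threshold. SLC1A3, an astroglial glutamate transporter, was at 10.0 and 10.35 in U87MG, 9.09 and 9.12 in U87MGL and 8.86 and 8.69 in U87MGR. It was the 1 marker of this list called, lower in U87MGR (-1.40, limma adjusted p = 0.0185) and in U87MGL (-1.07, limma adjusted p = 0.0254). Over all genes tested, 1.44% and 1.8% were called lower there. SLC1A3 so moved with IL36B and IL1RN, and its part in their differences was not tested. The first call was lost without either U87MGR array, and the second without U87MG replicate 2 or any derivative array. NES, a progenitor marker, differed by 1.18 and 1.14 and was not called (limma adjusted p = 0.218 and 0.205).

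IL36B, an agonist of the IL-36 receptor, was at 10.94 and 11.19 in U87MG, 6.97 and 8.37 in U87MGL, and 7.77 and 6.69 in U87MGR. Both parental arrays lay above all 4 derivative arrays, and the derivatives overlapped each other. The mean was 14.3-fold lower in U87MGR than in U87MG (log2 difference -3.83, SE 0.50) and 10.5-fold lower in U87MGL (-3.39, SE 0.50, limma adjusted p = 0.0187). The second test shares the U87MG arrays with the difference that prompted the choice of IL36B and is not independent of it. U87MGR and U87MGL differed by -0.44 (SE 0.50, limma adjusted p = 0.837, 95% interval -1.61 to 0.73). Within the batch of U87MG replicate 1 and U87MGR replicate 2 the difference was -4.25, as large as the pooled one. The dimmer IL36B probe set gave -4.14 for U87MGR and -3.54 for U87MGL against U87MG.

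The IL36B replicates were wide apart in the derivatives, by 1.40 in U87MGL and 1.08 in U87MGR, gaps larger than those of 99.7% and 99.0% of the genes tested. In U87MG they differed by 0.25. The call in U87MGL was lost without U87MG replicate 2 (-3.27, limma adjusted p = 0.0637) and with 2 or 3 spike-in batches as a block (-4.47 and -4.35, limma adjusted p = 0.31 and 0.171). With those blocks limma called 0 genes in all between U87MGL and U87MG. At an unadjusted p under 0.05, 649 genes were higher and 587 lower with 2 batches, and 1111 and 1115 with 3.

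IL1RN, the receptor antagonist, was at 9.30 and 8.79 in U87MG, 5.75 and 6.69 in U87MGL, and 5.54 and 5.54 in U87MGR. The parental arrays again lay above the other 4, and both U87MGR arrays lay below both U87MGL arrays. The mean was 11.4-fold lower in U87MGR than in U87MG (-3.51, SE 0.32) and 7.12-fold lower in U87MGL (-2.83, SE 0.32, limma adjusted p = 0.0104, a test that shares the parental arrays with the choice). U87MGR and U87MGL differed by -0.68 (SE 0.32, limma adjusted p = 0.607), and by -0.68 within their batch. The within-batch difference from U87MG was -3.76. The call in U87MGL was lost with 2 spike-in batches (-2.83, limma adjusted p = 0.349) or 3 (-3.08, limma adjusted p = 0.166) as a block, and held without any single array. As the mean of all IL1RN probe sets the difference was -1.12 (limma adjusted p = 0.0306).

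The 5 probe sets of IL1RN all gave a lower mean in both derivatives than in U87MG, but by different amounts. The next brightest pair differed by -0.95 and -0.98 in U87MGR and by -1.18 and -1.09 in U87MGL. The remaining pair, whose means of 3.99 and 2.98 lay under the test threshold, differed by -0.15 and -0.23 in U87MGR and by -0.11 and -0.38 in U87MGL. The size of the IL1RN difference thus depends on the probe set. Which transcripts each probe set reads was not analysed here.

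**Figure D2:**
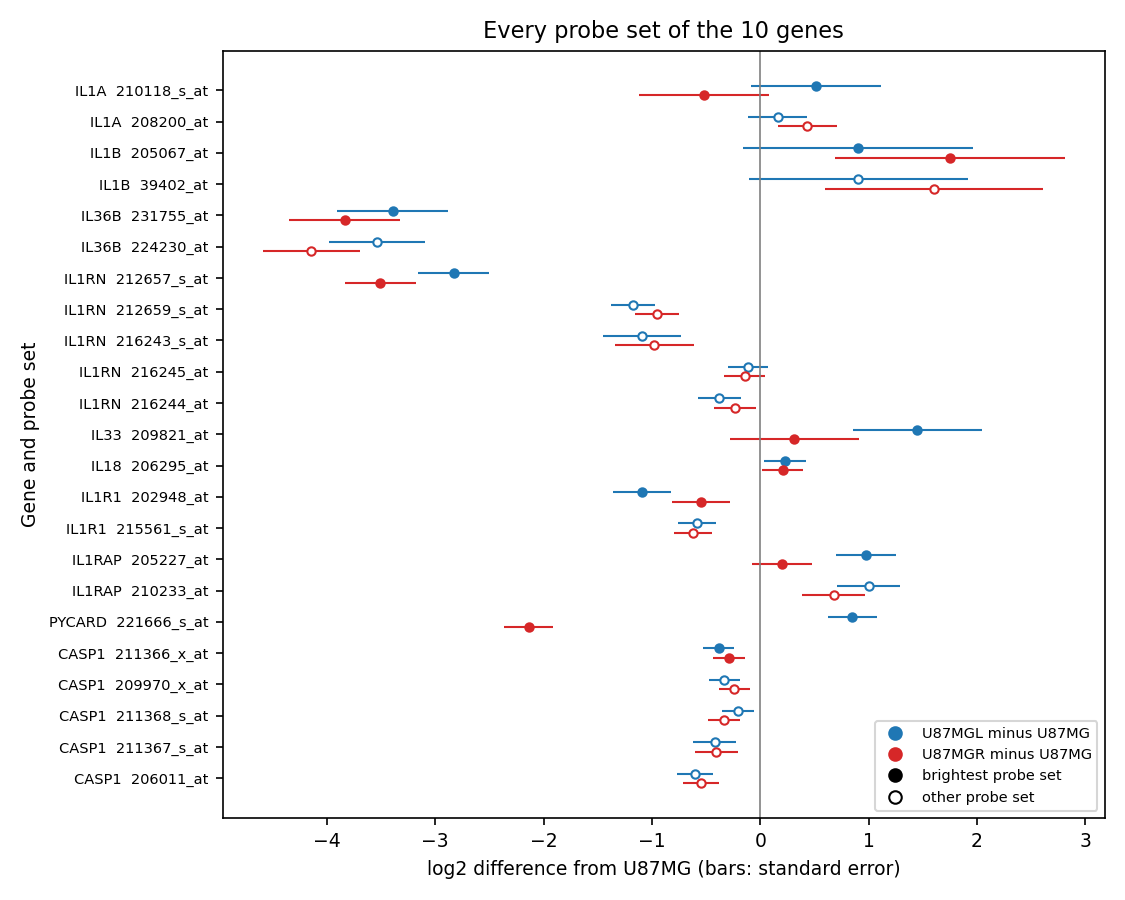
Log2 difference from U87MG (x axis) of all 23 probe sets of the 10 genes (y axis), for U87MGL (blue) and U87MGR (red), from a fit on all probe sets; bars are standard errors, filled points the brightest probe set of a gene. Both IL36B probe sets agree in size, the IL1RN probe sets range from -3.51 to -0.15 in U87MGR, and PYCARD has a single probe set.

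Other genes of the chromosome 2 cluster were read for comparison. In order from IL1A to IL1RN the genes are IL1A, IL1B, IL37, IL36G, IL36A, IL36B, IL36RN, IL1F10 and IL1RN. IL36RN, which encodes the antagonist of the IL-36 receptor and lies next to IL36B, was at 9.09 and 10.31 in U87MG, 6.63 and 7.67 in U87MGL and 8.30 and 7.20 in U87MGR. It was 5.86-fold lower in U87MGL (-2.55, limma adjusted p = 0.0469) and differed by -1.95 in U87MGR (limma adjusted p = 0.0993). That call held in 6 of 16 other fits and was lost without U87MG replicate 2 or any single derivative array. Both parental arrays lay above all derivative arrays, as for IL36B and IL1RN.

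IL1F10, which lies between IL36RN and IL1RN, did not share this pattern, with 5.38 to 5.62 on all 6 arrays. IL37, an anti-inflammatory member, lay between 7.54 and 8.07, and IL36G and IL36A, the other IL-36 agonists, were under the test threshold. Genes just outside the cluster were not called in any comparison: SLC20A1 and CKAP2L on the IL1A side and PSD4 and PAX8 on the IL1RN side differed from U87MG by -0.67 to 0.86, with PSD4 at -0.55 in U87MGR and -0.67 in U87MGL. Of all 6 family ligands and binding proteins outside the 10 genes, 4 were tested. Beside 1.8% and 1.44% of all genes tested, 1 of these was called lower in U87MGL and none in U87MGR. Their median difference from U87MG was -0.23 in U87MGL and -0.20 in U87MGR, beside -0.02 and -0.01 over all genes tested.

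**Figure D3:**
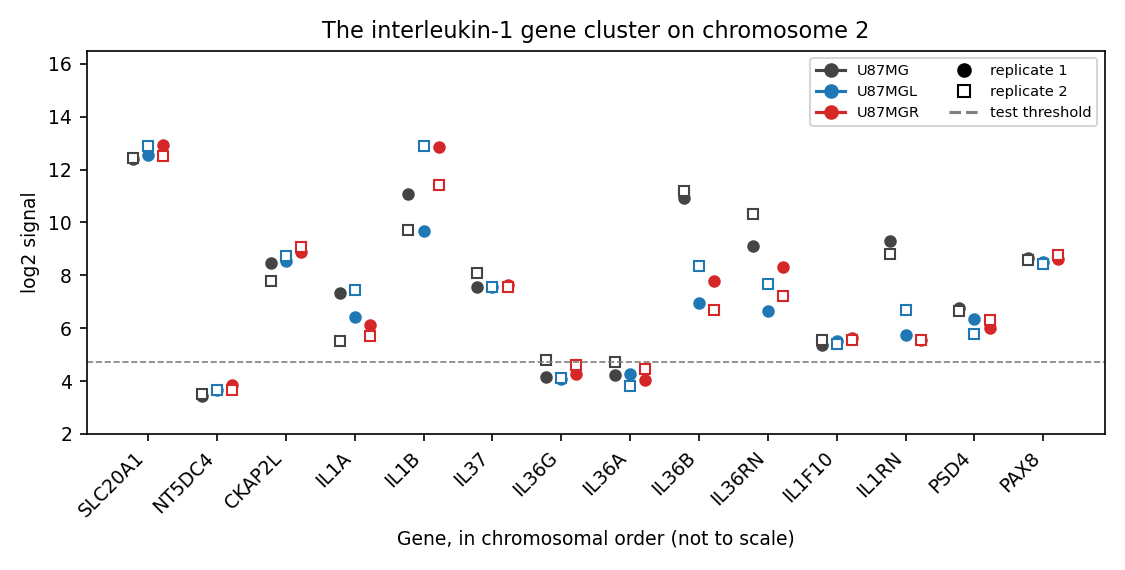
Log2 signal (y axis) on each array of the measured protein-coding genes of the interleukin-1 cluster and its neighbours, in chromosomal order (x axis, not to scale); levels compare arrays within a gene, not genes with each other. IL36B, IL36RN and IL1RN have both U87MG arrays above all 4 derivative arrays, while IL1F10 between them is level at 5.38 to 5.62.

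IL1B, the secreted agonist whose precursor CASP1 cuts, was at 11.06 and 9.71 in U87MG, 9.67 and 12.91 in U87MGL, and 12.85 and 11.41 in U87MGR. Its highest and its lowest array were the U87MGL replicates, 3.24 apart, and the U87MGR arrays lay above the U87MG arrays but inside the U87MGL range. The differences were 1.75 for U87MGR against U87MG (SE 1.02, limma adjusted p = 0.383), 0.84 for U87MGR against U87MGL (limma adjusted p = 0.849) and 0.90 for U87MGL against U87MG (limma adjusted p = 0.637). None passed the test, and the 95% interval of the first ran from -0.66 to 4.16. Within batches U87MGR differed by 0.36 from U87MG and by 1.57 from U87MGL.

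A second IL1B probe set followed the first on every array, 0.19 to 0.52 below it, so the spread appeared in both. The replicate gaps of IL1B were larger than those of 98.8% of tested genes in U87MG and 99.7% in U87MGR, and that in U87MGL was among the largest of all genes tested. The difference of U87MGR from U87MGL was -0.78 without U87MGL replicate 1 and 2.47 without U87MGL replicate 2. U87MGL replicate 2 and U87MGR replicate 1, the highest pair, share a spike-in batch, and U87MGL replicate 1, the lowest, is in that batch too.

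IL1A, the agonist that acts without cutting by CASP1, followed IL1B between the replicates of each group but not in its group means. It was at 7.33 and 5.52 in U87MG, 6.44 and 7.44 in U87MGL, and 6.12 and 5.70 in U87MGR. Both U87MGR arrays lay below both U87MGL arrays and inside the range of U87MG, whose replicates were 1.81 apart. The differences were -0.52 for U87MGR against U87MG, -1.03 for U87MGR against U87MGL and 0.52 for U87MGL against U87MG (limma adjusted p = 0.661, 0.661 and 0.635). They do not hold up against the replicate error, and the dimmer IL1A probe set gave 0.43, 0.27 and 0.16.

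IL33 and IL18 were not tested. IL33, a nuclear alarmin, was at 3.49 and 2.59 in U87MG, 3.56 and 5.42 in U87MGL and 3.47 and 3.25 in U87MGR. Its one array above the threshold was U87MGL replicate 2, the array that was also highest for IL1B and IL1A. IL18, the other ligand that CASP1 cuts, lay between 2.68 and 3.17 on all arrays, at percentile 5.19 of all probe sets, with differences between groups of -0.02 to 0.23.

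IL1R1, the signalling receptor, was at 8.97 and 9.58 in U87MG, 8.28 and 8.09 in U87MGL and 8.46 and 8.996 in U87MGR. The U87MGL arrays were the lowest in this probe set, with both other groups above them. The difference of U87MGL from U87MG was -1.09 (SE 0.27, limma adjusted p = 0.0655), that of U87MGR from U87MG -0.54 (limma adjusted p = 0.299) and that of U87MGR from U87MGL 0.55 (limma adjusted p = 0.614). The first passed the test without U87MG replicate 1 (-1.40, limma adjusted p = 0.0315) and with the mean of both probe sets (-0.84, limma adjusted p = 0.0464). Within batches U87MGR differed from U87MG by 0.028 and from U87MGL by 0.28. The dimmer IL1R1 probe set gave -0.59 for U87MGL and -0.62 for U87MGR against U87MG. Between U87MGR and U87MGL it gave -0.03, and there U87MGR replicate 2 was the lowest array.

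IL1RAP, the co-receptor of IL1R1 and of the IL-33 and IL-36 receptors, went the other way. It was at 7.11 and 6.53 in U87MG, 7.91 and 7.68 in U87MGL and 7.34 and 6.70 in U87MGR. In this probe set the U87MGL arrays were the highest of the 6, while in the dimmer one U87MGR replicate 1 (7.25) lay between them (7.19 and 7.27). U87MGL differed from U87MG by 0.97 (SE 0.28, limma adjusted p = 0.0964), and U87MGR differed from U87MGL by -0.77 (limma adjusted p = 0.475) and from U87MG by 0.20 (limma adjusted p = 0.727). The first passed the test without U87MG replicate 1 (1.26, limma adjusted p = 0.0475). With 2 spike-in batches as a block, on all 6 arrays, the IL1RAP difference was 0.34 and that of IL1R1 was -0.56. With 3 batches, a fit that also left out U87MG replicate 2, they were 0.05 and -0.25. Both receptor differences were thus smaller in these fits. Their batch term rests on the U87MGR arrays alone, which are different sublines, so batch and subline cannot be told apart. The dimmer IL1RAP probe set gave 1.00 for U87MGL against U87MG. For U87MGR it gave -0.32 against U87MGL and 0.68 against U87MG.

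Among 8 further family receptors, 5 were tested. IL1R2, the decoy receptor that binds ligand without signalling, was at 5.76 and 5.56 in U87MG, 4.69 and 4.77 in U87MGL and 4.75 and 4.61 in U87MGR. All 4 derivative arrays lay below both parental arrays. It was 1.97-fold lower in U87MGR (-0.98, limma adjusted p = 0.0307) and 1.9-fold lower in U87MGL (-0.93, limma adjusted p = 0.0278), each call holding in 7 of 14 other fits and lost without any single derivative array. The dim derivative levels are close to the threshold of 4.73. No other receptor passed, where 1.44% of all genes tested were called lower in U87MGR and 1.8% in U87MGL. The median difference over the 5 receptors was -0.22 in U87MGR and -0.47 in U87MGL. IL1RAPL2 and SIGIRR, an inhibitory receptor, had the largest differences of U87MGR from U87MGL, at 0.38 and 0.26, neither called.

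PYCARD, the adaptor that links inflammasome sensors to CASP1, was at 6.30 and 6.56 in U87MG, 7.13 and 7.43 in U87MGL, and 4.56 and 4.03 in U87MGR. The 3 groups did not overlap, and both U87MGR arrays lay under the level of 4.73. The mean was 4.4-fold lower in U87MGR than in U87MG (-2.14, SE 0.23) and 7.93-fold lower than in U87MGL (-2.99, SE 0.23). Within batches the differences were -2.27 and -2.72. U87MGL differed from U87MG by 0.85 (SE 0.23, limma adjusted p = 0.0839, 95% interval 0.31 to 1.39), which did not pass the test.

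The difference of PYCARD from U87MGL ranged from -3.25 to -2.72 and that from U87MG from -2.40 to -1.87 as single arrays were left out. PYCARD has 1 probe set, so no other one could check it. Of its measured neighbours on chromosome 16, PRSS36, TRIM72 and ITGAM were tested and not called, with differences of -0.27 to 0.22. PRSS8 and PYDC1 were under the test threshold, and PYDC1 differed from U87MG by -0.43 in both derivatives.

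**Figure D4:**
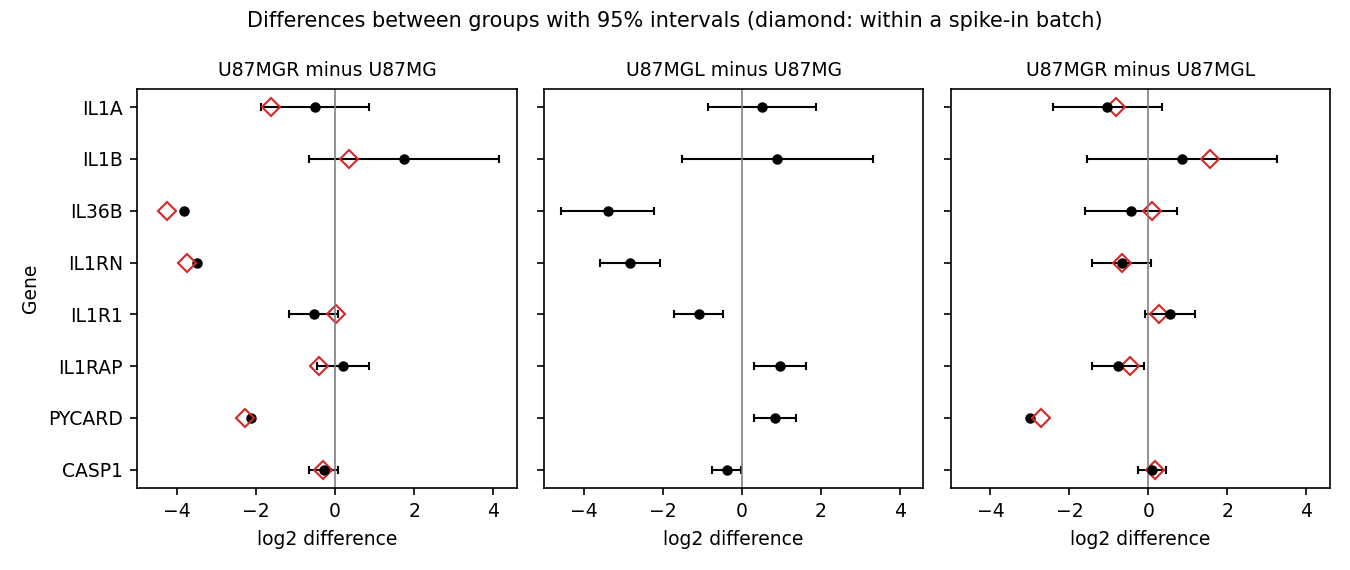
Log2 difference (x axis) of the 8 tested genes (y axis) in each comparison, with 95% intervals from limma (black) and the difference within a spike-in batch (red diamonds; no batch holds U87MGL with U87MG). The 4 differences that chose genes have no interval; the IL1B and IL1A intervals span 0 in all 3 comparisons.

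CASP1, the protease of the inflammasome, had a range of 0.46 over the 6 arrays, at percentile 28.0 of the ranges of all genes tested. It was at 8.04 and 8.18 in U87MG, 7.72 and 7.74 in U87MGL and 7.90 and 7.74 in U87MGR. The parental arrays were the highest. The differences from U87MG were -0.38 in U87MGL (SE 0.15, limma adjusted p = 0.197) and -0.29 in U87MGR (limma adjusted p = 0.341), and U87MGR differed from U87MGL by 0.09 (limma adjusted p = 0.893). All 5 CASP1 probe sets had a lower mean in both derivatives, at -0.61 to -0.20 in U87MGL and -0.55 to -0.24 in U87MGR. CARD16, a related gene, shares a further probe set with CASP1, which was not used for either gene. The brightest CASP1 probe set ends in _x_at. Whether it also reads CARD16 was not analysed, so CASP1 values are uncertain in that respect.

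Of 24 other inflammasome sensors and effectors, 23 were measured and 18 tested. In U87MGL 2 were lower and none higher than in U87MG, where 1.8% and 3.02% of all genes were: GSDME, a pore-forming gasdermin, at -1.24 (limma adjusted p = 0.0226), and AIM2, a sensor of cytosolic DNA, at -0.998 (limma adjusted p = 0.0306), calls that held in 9 and 8 of 16 other fits. Both were lost without U87MG replicate 2, U87MGL replicate 2 or either U87MGR array, and AIM2 also without U87MGL replicate 1. GSDME was at 11.65 and 11.75 in U87MG, 10.69 and 10.22 in U87MGL and 11.20 and 11.12 in U87MGR. In U87MGR none was called against either group, where 3.3% (U87MG) and 0.158% (U87MGL) of all genes were. The list's median difference was -0.15 in U87MGR and -0.04 in U87MGL against U87MG, and -0.11 between the derivatives.

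TXNIP, an alpha-arrestin that binds thioredoxin and the sensor NLRP3, had the largest difference in this list without a call. It was at 6.45 and 6.11 in U87MG, 6.75 and 10.10 in U87MGL and 10.64 and 10.21 in U87MGR. U87MGL replicate 2 lay with the U87MGR arrays and U87MGL replicate 1 with the parental ones. The difference of U87MGR was 4.14 from U87MG (limma adjusted p = 0.0612) and 2.001 from U87MGL (limma adjusted p = 0.596), and U87MGL differed from U87MG by 2.14 (limma adjusted p = 0.217). For U87MGR, NLRP12 at -1.04 against U87MG and GSDME at 0.71 against U87MGL came next.

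No gene of the relay from receptor to nucleus passed the test. Of 16 tested genes from MYD88 to the NF-kappaB subunits none was called in any comparison, where 3.3%, 4.82% and 0.158% of all genes were in U87MGR against U87MG, U87MGL against U87MG and U87MGR against U87MGL. Their medians were -0.13, -0.06 and -0.01. The largest differences were in the subunits NFKB1 (-0.44) and RELB (-0.43) in U87MGR and in RELB (-0.93) and the ubiquitin ligase TRAF6 (0.47) in U87MGL, both against U87MG. Between the derivatives they were in RELB (0.51) and the kinase IRAK1 (0.46).

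Of 25 NF-kappaB targets that IL-1 induces, 22 were measured and 20 tested. Against U87MG, 2 fell and none rose in U87MGR, and 3 fell and 1 rose in U87MGL. Over all genes 1.44% fell and 1.86% rose in U87MGR, and 1.8% and 3.02% in U87MGL. CCL2, a monocyte chemokine, was at 8.56 and 8.86 in U87MG, 7.61 and 6.79 in U87MGL and 5.82 and 5.86 in U87MGR. It fell 7.32-fold in U87MGR (-2.87, limma adjusted p = 0.0125) and fell by 1.51 in U87MGL (limma adjusted p = 0.0312). SOD2, the mitochondrial superoxide dismutase, was lower by 1.30 in U87MGR (limma adjusted p = 0.03) and 1.60 in U87MGL (limma adjusted p = 0.0148). In U87MGL the prostaglandin E synthase PTGES fell by 1.78 (limma adjusted p = 0.0135), and the collagenase MMP1 rose by 2.54 (limma adjusted p = 0.0255).

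None of these targets was called between U87MGR and U87MGL, where 0.158% of all genes were. CCL2 (-1.36) and PTGES (1.19) differed the most there. The calls held in 12 (CCL2) and 11 (SOD2) of 16 other fits in U87MGR, and in 13 (SOD2), 12 (PTGES), 9 (CCL2) and 9 (MMP1) in U87MGL. Several of these fits give the same values for a comparison, so the counts repeat some results. None held with spike-in batches as a block. Those in U87MGR were lost without either U87MGR array, and SOD2 also without U87MG replicate 2. In U87MGL all 4 were lost without U87MGL replicate 2, PTGES also without U87MGL replicate 1, and CCL2 and MMP1 also without U87MG replicate 2 or either U87MGR array. The list's median was 0.06 in U87MGR and -0.31 in U87MGL against U87MG. Its mean level over 22 genes was 9.06 and 8.28 in U87MG, 8.02 and 8.79 in U87MGL and 8.40 and 8.66 in U87MGR, so that the groups overlapped. Within U87MG and within U87MGL the array with more IL1B had the higher mean, and within U87MGR it had the lower.

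Genes with the most similar pattern over the 6 arrays were found by the root mean square difference of centred log2 signals, as a description. For IL36B these were IL1RN (0.47), DAPL1 (0.57) and the protease inhibitor CSTA (0.60), and for IL1RN they were DAPL1 (0.40), IL36B (0.47) and HSD11B1 (0.51), which activates cortisone. IL36B and IL1RN were each among the 3 nearest of the other, and DAPL1 was near both. IL36B and IL1RN were both chosen by large falls between the same arrays. That choice favours their nearness, and nothing is read from it. For PYCARD they were DTNBP1 (0.46), RNF149 (0.55) and ZNF32 (0.56), against a spread of 1.27 for PYCARD itself. For IL1A they were TNS1 (0.20), PLAT (0.31) and EPB41L4B (0.32).

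For IL1B the nearest was ARRDC4 (0.65), then DAW1 (0.72) and THBD (0.74), against its own spread of 1.31, a looser likeness than for the others. ARRDC4 encodes an alpha-arrestin like TXNIP. It was at 6.41 and 5.37 in U87MG, 6.05 and 7.54 in U87MGL and 7.78 and 7.72 in U87MGR. U87MGL replicate 2 again lay beside the U87MGR arrays.

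**Figure D5:**
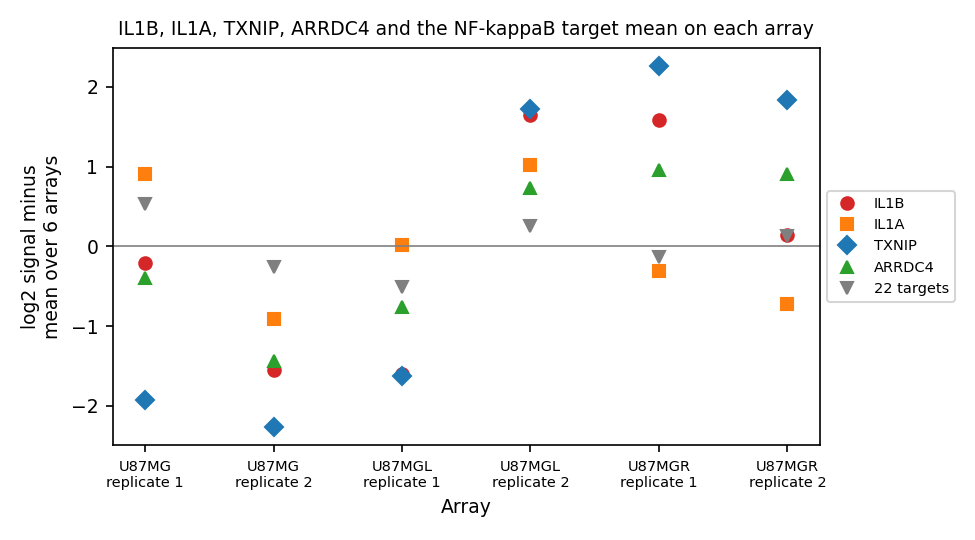
Log2 signal minus the mean over the 6 arrays (y axis) on each array (x axis) for IL1B, IL1A, TXNIP, ARRDC4 and the mean of the 22 measured NF-kappaB targets. The U87MGL replicates differ by 3.24 in IL1B and lie on opposite sides of 0 in IL1B, TXNIP, ARRDC4 and the target mean, but not in IL1A.

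Cells other than glioma could carry IL-1 family mRNA, so their markers were read on the same arrays. Of 16 measured microglia and macrophage markers 10 reached the test threshold and none was called in any comparison. Over all genes tested, 3.3% were called in U87MGR against U87MG, 4.82% in U87MGL against U87MG and 0.158% between the derivatives. The mean level of all 16 was 5.13 to 5.19 in U87MG, 4.95 to 4.99 in U87MGL and 5.05 to 5.10 in U87MGR. TMEM119 differed the most, by -1.77 in U87MGR and -0.995 in U87MGL against U87MG. PTPRC, TYROBP, CX3CR1, P2RY12, C1QB and C1QC were under the threshold. None of the 7 tested endothelial markers was called, nor any of the 4 tested keratinocyte markers. In the same group order, the mean of all 10 measured endothelial markers was 5.04 to 5.17, 4.92 to 4.95 and 4.96 to 5.05. That of all 9 measured keratinocyte markers was 5.48 to 5.59, 5.38 to 5.46 and 5.49 to 5.57. Of these, KRT10 (10.94 to 11.16) and SFN (6.94 to 7.46) lay well above the threshold, and CDH1, KRT14 and KRT1 under it. Both parental arrays had the highest mean over the 16 measured microglia markers, as they had the highest signal in IL36B and IL1RN. Yet of the 10 tested microglia markers, 7 had a higher mean in U87MGR than in U87MG, and 6 a higher one in U87MGL. The part of other cells in the results was not tested. Human probe sets may read mouse RNA poorly. Since RNA was pooled over cells, fewer expressing cells and less mRNA per cell cannot be told apart.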

How the data were processed

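The authors deposited log2 signals for 54675 probe sets of 6 one-colour arrays, already alike between arrays (medians 5.29 to 5.35). The unit was read from the values (2.38 to 14.6); background correction and normalization are not given in the sources used here. Per the labels, RNA was extracted with TRIzol and a column kit and labelled with biotin. No further normalization was applied.

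Probe sets were named through the platform annotation: 41097 carried 1 symbol, 1801 several and 11777 none, and 99.9% of the 1-symbol sets matched RefSeq GRCh38.p14 by gene number. The brightest stood for each of 19775 genes; 14513 with a mean at or above 4.73 were tested. One limma model (version 3.58.1, R 4.3.3) gave each group a mean over all 6 arrays (3 residual and 4.05 prior degrees of freedom, median SE 0.19), with Benjamini-Hochberg adjustment over all genes tested. It was tested on simulated data.

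The text names the 10 genes, up to 2 called genes per direction of each pathway list by size (where none was called, up to 2 by size of difference) and the 3 nearest patterns; other genes were named after their values were seen. The genes, lists, tests and alternatives were chosen with earlier results of these data known. Neighbouring genes were taken by chromosomal order. Alternatives covered the filter, normalization, probe set, variance model, arrays in the fit, replicate block, left-out arrays and spike-in batches. Batches were taken as 3, in a fit that left out U87MG replicate 2. They were also taken as 2, with U87MG replicate 2 joined to the batch of U87MG replicate 1. Some of these fits are the same for a comparison, as when an array of the third group is left out. Counts of fits in which a call held therefore repeat some results and are not independent checks. The number of arrays limits the precision.

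Replicate numbers were not used as pairs: after removing group means, same-numbered arrays correlated across genes at -0.09, 0.11 and 0.01.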

Additional observations from a re-analysis of the deposited data

How the results depend on the processing

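With 2 arrays per group, calls depend on few degrees of freedom. Of 443 values of the 10 genes under other settings, 20 lost a call and 4 gained one. In 30 the sign was opposite to that reported, none of them in a called difference. Leaving out 1 array gave 0 to 3 called members for U87MGR against U87MG, 0 to 1 against U87MGL (0 without U87MGL replicate 1 or U87MGR replicate 2) and 1 to 4 for U87MGL against U87MG (4 without U87MG replicate 1, 1 without U87MG replicate 2). The 0 for U87MGR against U87MG arose without either U87MGR array, where limma called 11 and 1 of all genes. With 2 spike-in batches as a block limma called 0 members in each comparison, and with 3 batches 2, 0 and 0 (U87MGR against U87MG, U87MGR against U87MGL, U87MGL against U87MG). Few genes of any kind were called in most of these fits: with 2 batches 5 higher and 6 lower, 1 and 3, and 0 and 0, and with 3 batches 96 and 135, 0 and 0, and 0 and 0. A filter at the 60th percentile removed PYCARD and left 0 members called against U87MGL, and avoiding probe sets ending in _x_at or _s_at left IL1RN with a dim probe set that was not tested and 1 called in U87MGL.

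Among the values with a test that changed sign, IL36B between U87MGR and U87MGL was 0.10 with either batch block and -1.14 to 0.26 with 1 array left out. IL1A was 0.43 and 0.27 in U87MGR against U87MG and U87MGL with its other probe set, -1.42 to 0.39 against U87MG with 1 array left out, and for U87MGL against U87MG -0.81 with 3 batches and -0.39 to 1.42 with 1 array left out. IL1B ranged from -0.78 to 2.47 between the derivatives and from -0.72 to 2.53 for U87MGL against U87MG, or was -0.54 and -1.21 with 2 and 3 batches. For U87MGR against U87MG, IL1R1 was 0.028 with 3 batches, and IL1RAP was -0.11 and -0.40 with 2 and 3 batches and -0.11 to 0.52 with 1 array left out.

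With the replicate number as a block, 3, 1 and 3 members were called in U87MGR against U87MG, U87MGR against U87MGL and U87MGL against U87MG. Over all genes, in the same order, 188 were called higher and 175 lower, 5 and 23, and 370 and 232. The third count of members gained IL1RAP (0.97, limma adjusted p = 0.0428), and the block changed no other call of the members. No setting planned for the members was left out. Sign changes without a test were those of other probe sets (IL1RN between the derivatives 0.11 to 0.22 in 3 of them) and within-batch differences.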
